A study of Homo sapiens with 4 samples.

Results

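HNRNPA0, CHMP1B, RPS19, CCDC85B and VGF are 5 genes over which a strong m6A peak was found in only 1 of the MeRIP libraries of this study. They were chosen from the measured values themselves, for their high number of reads and high −log10 q among the peaks of 1 library that overlapped no peak of the other, so whether a peak was present, and how strong it was, is given as a description and without a test. A peak was assigned to a gene when its summit lay in an hg19 window around that gene. The 5 windows held 5 of the 21693 peaks of both lists. With 1 peak per window, 2 came from the control list of 9441 peaks, in which 23.8% of all peaks overlapped no knockdown peak, and 3 from the knockdown list of 12252 peaks, in which 41.4% overlapped no control peak. The windows stand for the genes, since no annotation of hg19 was used here. The symbols of all 5 genes were matched in RefSeq (GRCh38.p14), from which strands and neighbouring genes were taken and no position.

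The 4 samples were libraries of H1975, an established human lung adenocarcinoma (LUAD) cell line. The cells carried a control shRNA (NC-sh) or an shRNA against METTL3 (METTL3-sh), delivered by lentivirus for 48 h, with 1 Input and 1 MeRIP library for each. In MeRIP, RNA fragments that carry m6A are pulled down with an antibody, and Input is the same RNA without the pulldown. The METTL3 shRNA listed by the study is shown because the knockdown rests on it, 5′ to 3′ and 21 bases long.
METTL3 shRNA: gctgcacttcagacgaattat
The names of the peaks in both lists start with H1299, another LUAD line, whereas the labels give H1975. The series text speaks of replicates, but 1 MeRIP library per condition was given, so no difference below could be checked on replicates, and no p-value was calculated. All intervals are 95% intervals of counting error. They say nothing of the variation between cultures.

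m6A is a methyl mark on adenosine that METTL3, in a complex with METTL14, writes on mRNA in the nucleus. Reader proteins bind it and change the decay, splicing or translation of the transcript. The mark is known to be dense in long exons and near stop codons, which makes genes without introns of interest. HNRNPA0, CHMP1B and CCDC85B are such intronless genes, and the coding sequence of VGF lies in a single exon. RPS19 has several short exons.

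Each peak is described by its pileup, its local expectation and its fold enrichment. Pileup is the number of MeRIP reads over the summit after scaling, with 1 read worth 0.327 (NC-sh) or 0.364 (METTL3-sh). The local expectation is the number of reads that the peak caller expected there from Input. Fold enrichment is the pileup over that expectation, with 1 added to both. The deposited lists hold peaks with a fold enrichment above 6 and no others. A gene without a peak in a list may therefore have had a peak at or below 6, or no peak at all, and the lists give no value for it in either case.

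HNRNPA0 had a strong peak in NC-sh and none listed in METTL3-sh. HNRNPA0 is a member of the hnRNP A/B family of RNA-binding proteins, which package nascent transcripts and bind AU-rich elements. Its peak ran from 137089191 to 137089813 on chromosome 5 (623 bp) with 5352 reads at the summit, a pileup of 1752 and a −log10 q of 819. It ranked 64 of 9441 by reads. Its local expectation of 253 was the 20th highest in the list. Its fold enrichment of 6.90 was higher than that of only 14.8% of all NC-sh peaks. In METTL3-sh, no peak lay in the window, and the nearest peaks were 135323 bp to the left and 128850 bp to the right.

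CHMP1B was the second gene with an NC-sh peak and no METTL3-sh peak. It encodes a subunit of ESCRT-III, the complex that pinches off membranes in endosomal sorting and cell division. The peak ran from 11851396 to 11852272 on chromosome 18 (877 bp) with 2334 reads at the summit, a pileup of 764 and a −log10 q of 592. Its fold enrichment of 15.0 was higher than that of 73.1% of all NC-sh peaks, and its local expectation of 50 ranked 312. In METTL3-sh, the nearest peaks were 1318418 bp to the left and 31920 bp to the right. In RefSeq, CHMP1B lies within GNAL, which encodes a G protein subunit, and reads of overlapping transcripts cannot be told apart in these lists.

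RPS19 had the strongest peak of all that were found in METTL3-sh and not in NC-sh. It encodes a protein of the small ribosomal subunit and is known for mutations in Diamond-Blackfan anaemia. The peak ran from 42364874 to 42365429 on chromosome 19 (556 bp), with 13496 reads at the summit, a pileup of 4907 and a −log10 q of 2358. By reads it ranked 11 of 12252. Its local expectation of 686 was the 3rd highest in the list. Its fold enrichment of 7.15 was higher than that of only 20.4% of all METTL3-sh peaks. In NC-sh no peak was listed within 504149 bp to the left and 337318 bp to the right.

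The CCDC85B peak was also found in METTL3-sh and not in NC-sh. CCDC85B is a small coiled-coil protein, first described as a partner of the hepatitis delta antigen. The peak ran from 65658398 to 65659118 on chromosome 11 (721 bp) with 7836 reads at the summit, a pileup of 2849 and a −log10 q of 1501. It ranked 32 by reads and 14 by its local expectation of 352. Its fold enrichment of 8.07 was higher than that of 33.4% of all METTL3-sh peaks. The nearest NC-sh peak began 25193 bp to the right. RefSeq places the gene between FIBP and FOSL1.

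VGF had the longest of the 5 peaks. It encodes a secreted precursor of neuropeptides of the granin type, known from neurons and endocrine cells. The METTL3-sh peak ran from 100806696 to 100808175 on chromosome 7 (1480 bp), longer than 98.0% of the peaks in that list. It held 7318 reads at the summit, with a pileup of 2661 and a −log10 q of 1225, and ranked 41 by reads. Fold enrichment was 6.77 over a local expectation of 392, the 11th highest. Only 14.0% of all METTL3-sh peaks had a lower fold enrichment. In NC-sh, the nearest peaks were 74999 bp to the left and 145611 bp to the right.

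**Figure D1:**
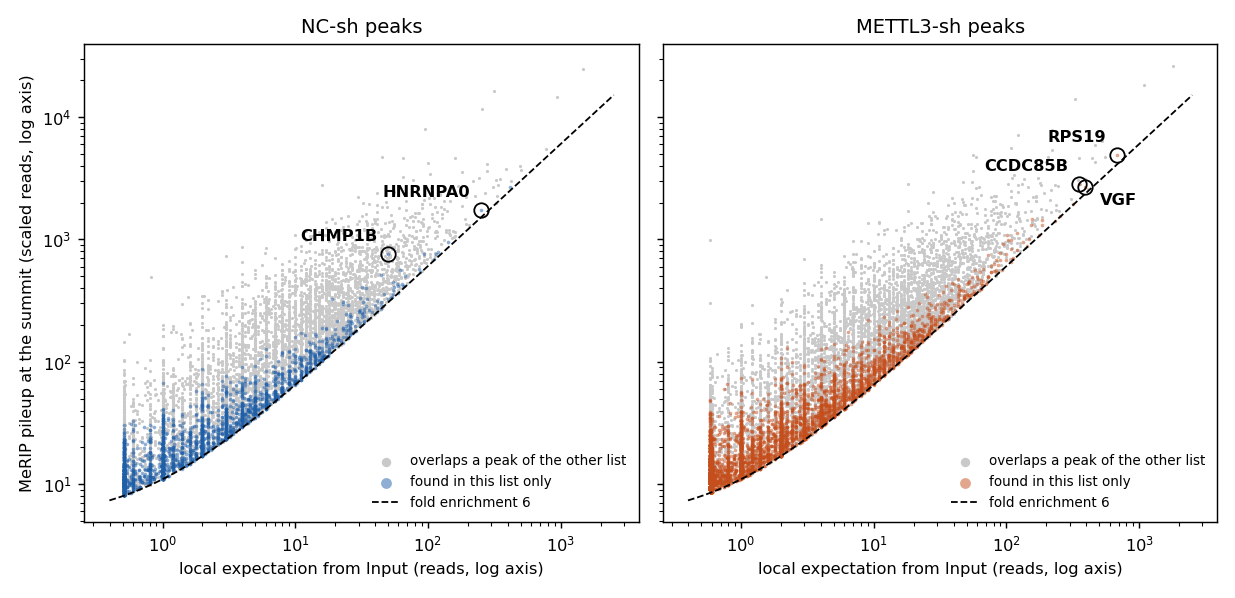
MeRIP pileup at the summit against the local expectation from Input, both in reads on log axes, for all peaks of the NC-sh list (left) and the METTL3-sh list (right), with peaks found in 1 list coloured, peaks that overlap a peak of the other list in grey and a dashed line at a fold enrichment of 6. HNRNPA0, RPS19, CCDC85B and VGF (circled) sit close above the dashed line at a high expectation, and CHMP1B sits well above it at an expectation of 50.

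All 5 peaks were longer than the median of their list, 395 bp in NC-sh and 371.5 bp in METTL3-sh. Shared peaks with at least 2000 reads at the summit were also long, with a median of 745 bp (NC-sh) and 758 bp (METTL3-sh). HNRNPA0, RPS19 and CCDC85B were shorter than that median of their list, and CHMP1B and VGF were longer. The local expectations of the 5 peaks ranged from 50 to 686. All peaks found in 1 library had a median of 70 reads (NC-sh) and 54 reads (METTL3-sh) and a median local expectation of 1.80 and 1.20, and since the 5 were chosen for their many reads, this distance restates the choice. The summit did not lie at the same place within each peak. Counted from the 5′ edge of the peak by the strand of the gene, the summit lay at 29.2% of the peak length in HNRNPA0, 32.9% in RPS19, 36.0% in VGF, 53.2% in CHMP1B and 74.2% in CCDC85B. The lists do not say from which strand the reads came.

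The local expectations of 4 members were whole numbers within 0.01, namely 253 in HNRNPA0, 50 in CHMP1B, 352 in CCDC85B and 392 in VGF. Read as Input reads over the summit, these counts have exact Poisson intervals of 223 to 286, 37.1 to 65.9, 316 to 391 and 354 to 433. The expectation of RPS19 was a multiple of 0.2, as it would be for 200 bp fragments counted in a window of 1000 bp, and corresponded to 3429 Input reads (3315 to 3546). Among all peaks with at least 2000 reads at the summit, 87.6% (NC-sh) and 85.0% (METTL3-sh) had a whole number as expectation. The −log10 p of each of the 5 peaks was also recalculated from its pileup and expectation under a Poisson distribution, and differed from the deposited one by less than 0.02.

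The counting error of Input was larger than that of MeRIP for each of the 5 genes. With the interval of the Input reads, fold enrichment ranged from 6.10 to 7.83 in HNRNPA0, from 6.14 to 7.49 in VGF, from 7.28 to 8.99 in CCDC85B and from 11.4 to 20.1 in CHMP1B. In RPS19 it ranged from 6.91 to 7.39. With the interval of the MeRIP reads instead, it was 6.72 to 7.09 in HNRNPA0, 6.62 to 6.93 in VGF, 7.90 to 8.25 in CCDC85B, 14.4 to 15.6 in CHMP1B and 7.03 to 7.27 in RPS19. By the Input count, the lower bounds of HNRNPA0 and VGF were thus close to the limit of 6, and that of CHMP1B was far from it.

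**Figure D2:**
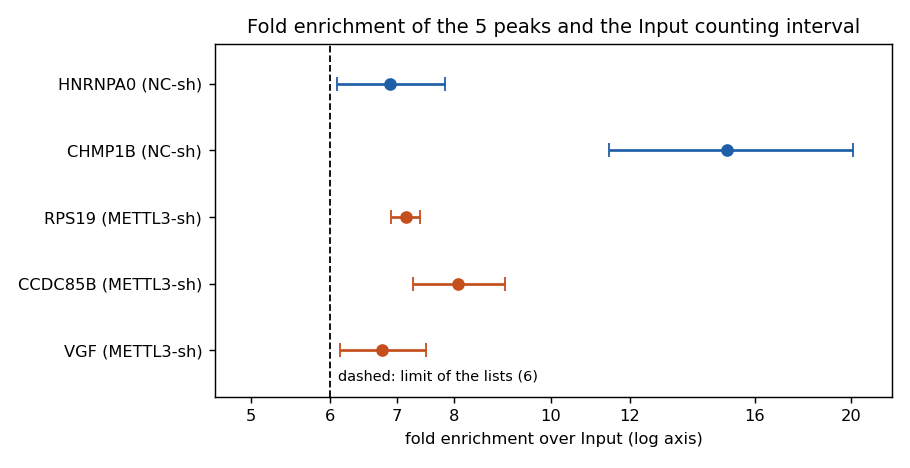
Fold enrichment over Input (log axis) of the peak of each gene in the list that held it, with the 95% interval that the count of Input reads gives, in blue for NC-sh and in orange for METTL3-sh. The dashed line is the lowest fold enrichment that the lists hold, 6, and CHMP1B is the one gene whose interval (11.4 to 20.1) is far from it.

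The distance of each peak from the limit shows how much lower its fold enrichment had to be in the other library for the peak to be missing from that list. A fall of 11.4% would have been enough for VGF, 13.05% for HNRNPA0, 16.04% for RPS19 and 25.7% for CCDC85B. For CHMP1B the fall had to be 60.0%. At an unchanged local expectation, the pileup of HNRNPA0 would have had to be at or below 1523 in place of 1752, that of VGF 2357 in place of 2661, that of RPS19 4120 in place of 4907, that of CCDC85B 2117 in place of 2849 and that of CHMP1B 305 in place of 764. At an unchanged pileup, the local expectation of CHMP1B would have had to rise to 126 from 50, by 153%. For the other 4 genes a rise of 12.9% (VGF) to 34.7% (CCDC85B) would have sufficed. Which of these happened, if either, cannot be read from the lists.

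How often falls of this size occurred was read from the other peaks with at least 2000 reads and at least the same fold enrichment in the same list, with a peak that had no partner in the other list counted as a fall. In METTL3-sh, fold enrichment was lower in NC-sh by at least the distance of VGF in 228 of 461 peaks (49.5%, 95% Wilson CI 44.9 to 54.0%), by that of RPS19 in 186 of 451 (41.2%, 36.8 to 45.8%) and by that of CCDC85B in 114 of 436 (26.1%, 22.2 to 30.5%). In NC-sh, fold enrichment was lower in METTL3-sh by at least the distance of HNRNPA0 in 116 of 410 peaks (28.3%, 24.1 to 32.8%). A fall as large as that needed for CHMP1B was found in 2 of 277 NC-sh peaks (0.722%, 0.198 to 2.59%). With a minimum of 1000 reads, chosen after seeing the data, it was found in 14 of 662 (2.11%). One of the 2, on chromosome 19 from 47421787 to 47422984, fell from 58.5 to 23.1, and the other, on chromosome 2 from 48573311 to 48573897, fell from 175 to 68.6. Both were still listed in METTL3-sh. Each gene was chosen for lacking a peak in the other list, so these shares are a description. The low share for CHMP1B cannot show that its missing peak is unusual, since a gene chosen this way may come from the tail.

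**Figure D3:**
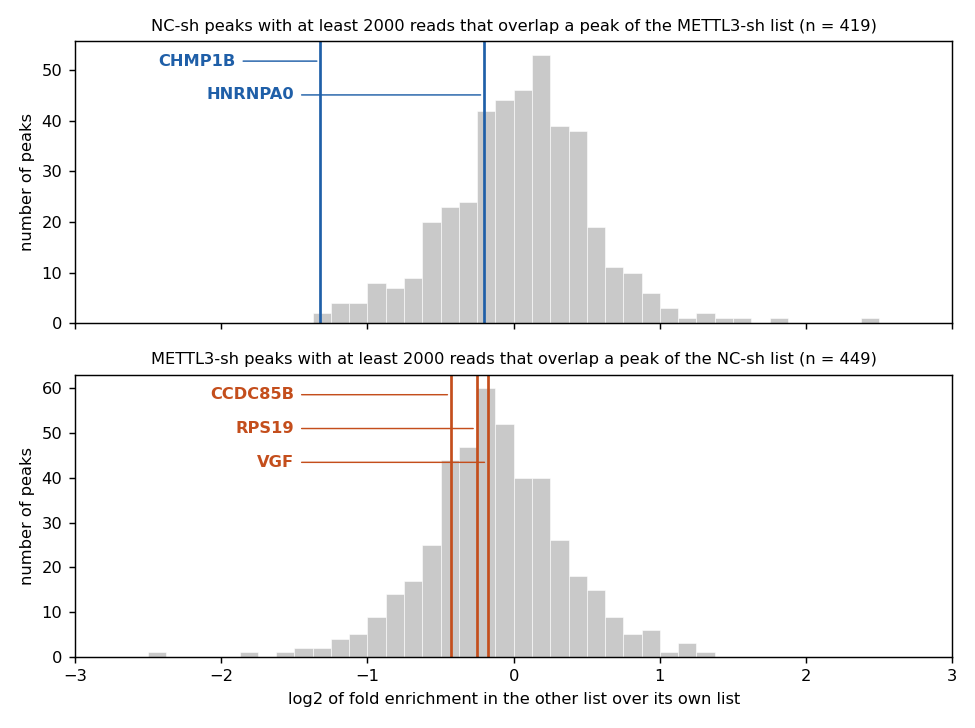
Log2 of the fold enrichment in the other list over that in its own list, for peaks with at least 2000 reads that overlap a peak of the other list (419 NC-sh peaks above, 449 METTL3-sh peaks below). Peaks without a partner are not drawn. The lines mark the log2 ratio at which each gene would reach the limit of 6. The lines for HNRNPA0, RPS19, CCDC85B and VGF (-0.20, -0.25, -0.43 and -0.17) lie within the bulk of the peaks, and that for CHMP1B (-1.32) lies at its lower end. Drawn peaks had a fold enrichment above 6 in both lists, so those below 15.0 in NC-sh could not reach the CHMP1B line.

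The distance of CHMP1B, -1.32 on the log2 scale, was also set beside NC-sh peaks with at least 2000 reads that were paired 1 to 1 with a METTL3-sh peak, whatever the reads of the latter. Among these 409 pairs, the log2 ratio of fold enrichment, METTL3-sh over NC-sh, had a median of 0.06, an SD of 0.49, a 5% quantile of -0.80 and a lowest value of -1.35. The log2 ratio of pileup had a 5% quantile of -0.43 and a lowest value of -1.33. That of the local expectation had a wider spread than that of pileup, with an SD of 0.46 against 0.32, and a highest value of 1.38. The pairs were chosen by their NC-sh reads and not by their expectation. In shared NC-sh peaks with at least 2000 reads, the median expectation was 50, against 2950 reads, so its counting error was larger. The source of the wider spread was not tested. Among all 6863 pairs, which include peaks with few reads, the lowest log2 ratios were -2.70 for fold enrichment and -2.85 for pileup. A pair needs a fold enrichment above 6 in both lists, so these ratios leave out falls to below it.

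Strong peaks that the other list lacked were rare. Among peaks with at least 2000 reads at the summit, they were 8 of 427 (1.87%) in NC-sh, which include HNRNPA0 and CHMP1B, and 24 of 473 (5.07%) in METTL3-sh, which include RPS19, CCDC85B and VGF. The members were chosen from among these, so their place there is no result. These peaks lay mostly near the limit, with a fold enrichment below 8 in 6 of 8 and 14 of 24, against 6.44% and 4.45% of the peaks with as many reads that were shared. Fold enrichment had a median of 6.62 (NC-sh) and 7.62 (METTL3-sh), against 19.7 and 20.8 in the shared peaks. Their median local expectation was higher, 117 and 146 against 50 and 55.0. Median reads were 2364 and 3008 against 2950 and 2936, so the higher expectation largely restates the lower fold enrichment.

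Within this set, CHMP1B had the highest fold enrichment of the 8 NC-sh peaks, 15.0, and the next was at 8.04. From 12 to below 16, METTL3-sh lacked 1 of 75 NC-sh peaks with at least 2000 reads (1.33%, Wilson interval 0.236 to 7.17%). That 1 is CHMP1B itself, chosen for lacking a METTL3-sh peak, so the share is a description and no support. In METTL3-sh there were 0 of 70 (upper Wilson bound 5.20%). At 16 and above there were 0 of 257 (NC-sh) and 0 of 289 (METTL3-sh), with upper Wilson bounds of 1.47% and 1.31%. HNRNPA0 was 1 of 6 among the 19 NC-sh peaks at 6 to below 7 (31.6%, 15.4 to 54.0%). VGF was 1 of 8 among 18 METTL3-sh peaks in the same range (44.4%, 24.6 to 66.3%). RPS19 was 1 of 6 among 16 METTL3-sh peaks at 7 to below 8 (37.5%, 18.5 to 61.4%). CCDC85B was 1 of 10 among 80 METTL3-sh peaks at 8 to below 12 (12.5%, 6.93 to 21.5%). In NC-sh, that range held 1 of 62 (1.61%, 0.285 to 8.59%), and the difference between the lists was not tested.

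**Figure D4:**
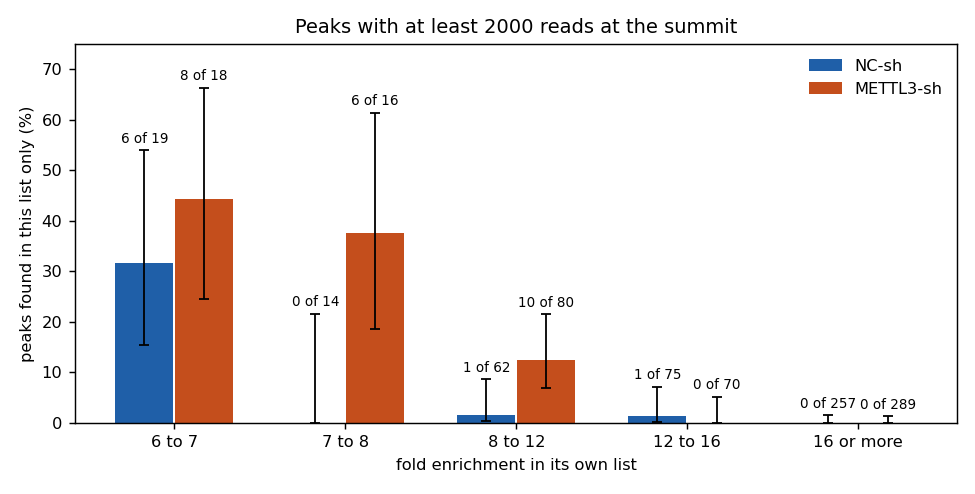
Share of peaks with at least 2000 reads at the summit that overlap no peak of the other list, in percent, by fold enrichment in their own list, for NC-sh (blue) and METTL3-sh (orange), with 95% Wilson intervals and the counts above the bars. The share is highest at a fold enrichment of 6 to 7 (31.6% and 44.4%) and CHMP1B is the 1 of 75 NC-sh peaks at 12 to 16.

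The peaks of a list are numbered, and a missing number is that of a peak which the list does not hold. In each of the 5 cases, numbers were missing in the other list between the deposited peaks on either side of the gene. There were 2 missing numbers around HNRNPA0, 4 around CHMP1B, 5 around RPS19, 3 around CCDC85B and 4 around VGF. This does not set them apart, as 38.9% of the NC-sh and 40.5% of the METTL3-sh numbers were missing, and each of the 32 peaks with at least 2000 reads that the other list lacked, the 5 included, had from 1 to 10 missing numbers around it. The intervals are long, so a missing number does not place a removed peak on the gene.

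The surroundings of 3 members held other peaks within 100 kb. Downstream of CHMP1B, at 32.5 kb from its summit, a peak was found in both lists, with 222 reads and a fold enrichment of 13.6 in NC-sh and 430 reads and 17.5 in METTL3-sh. The neighbour was thus higher in the library in which CHMP1B had no peak. At 26.6 kb downstream of CCDC85B, a peak was shared by both lists, with 3432 (NC-sh) and 3054 reads (METTL3-sh) and a fold enrichment of 7.75 and 8.23, about as close to the limit as CCDC85B. Around VGF, each list held 1 other peak that the other list lacked. The one in NC-sh was 76.7 kb away with 1259 reads and a fold enrichment of 12.5, and the one in METTL3-sh was 26.8 kb away with 838 reads and 8.54. HNRNPA0 and RPS19 had no other peak within 100 kb in either list.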

How the data were processed

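The submitters' processing notes name bcl2fastq, TopHat2 2.0.13, MACS2 2.1.0.20151222 and hg19. Each MeRIP library came with 1 list of peaks, made by the authors, and no source speaks of pooling. As deposited, pileup is a scaled signal and fold enrichment a ratio to the local expectation from Input, with a pseudocount of 1. The −log10 p of a peak, and its −log10 q, were deposited as the caller wrote them. How many reads each library holds is unknown, and the depth behind a peak is given as its reads at the summit (median 169 in NC-sh, 132 in METTL3-sh).

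Reads were computed as pileup over the step between its values, and the local expectation as (pileup + 1) / fold enrichment − 1. A Poisson −log10 p recalculated from both differed from the deposited one by under 0.02 for 99.8% (NC-sh) and 96.1% (METTL3-sh) of peaks. Peaks were shared when they overlapped by at least 1 bp. The members, windows and limits (2000 reads, 100 kb) were chosen with earlier results of these data known. The named genes are the 5 members. Outside the windows, the 2 peaks per list with most reads that overlapped no peak of the other list are given by position, and the 2 peaks set beside CHMP1B were chosen after their values were seen. Relatives of the members were not located, since no hg19 annotation was used here, and sequences under the peaks were not analysed here. Overlap, pairing and read recovery were tested on simulated data. Python 3.11.15, numpy 2.4.6, pandas 2.3.3, scipy 1.17.1 and matplotlib 3.10.9 were used.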

Additional observations from a re-analysis of the deposited data

How the results depend on the processing

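The peaks of the 5 windows were still found when any base in the window counted, when peaks within 100 bp were joined and with −log10 q at or above the median of both lists. That median was 36.6, far below the −log10 q of the 5 peaks, so this last filter could not remove them. With a fold enrichment of at least 8, the HNRNPA0, RPS19 and VGF windows held 0 peaks, and with at least 12 that of CCDC85B held 0 as well, as a stricter limit removes peaks near it. No peak of the other list was found at any of the 5 when overlaps had to cover 50% of both peaks, with summits within 100 bp or within 500 bp. These outcomes were fixed in advance, as the 5 were chosen for no overlap and the closest peak of the other list was 25193 bp away. Peaks found in 1 list made up 31.3% (NC-sh) and 47.1% (METTL3-sh) with an overlap of 50% of both peaks, 30.3% and 46.3% with summits within 100 bp, and 6.01% and 12.3% among peaks with a fold enrichment of at least 12, the other list being left whole. With summits within 100 bp, those of at least 2000 reads were 4.22% and 7.61%, an alternative chosen after seeing the data. In these the cause was not tested. Minimums of 1000 and 4000 reads, also chosen after seeing the data, left those shares within their intervals, and a minimum of 1000 reads did so for the falls of fold enrichment, although the share for CHMP1B rose from 0.722% to 2.11%. The alternatives for log2 ratios of pileup, fold enrichment and expectation were not run, since no window held a peak in both lists. No paired analysis was possible because there was 1 MeRIP library per condition. The depth limits CHMP1B most, at 50 Input reads.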

Other observations

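Outside the 5 windows, the peaks with most reads among those that overlapped no peak of the other list were also close to the limit of 6. In NC-sh they were on chromosome 14 from 21968515 to 21969437, with 8148 reads, a local expectation of 413 and a fold enrichment of 6.44, and on chromosome 2 from 85771578 to 85772379, with 2889 reads, an expectation of 141 and a fold enrichment of 6.67. In METTL3-sh they were on chromosome 13 from 45911045 to 45911658, with 5379 reads, an expectation of 320.0 and a fold enrichment of 6.10, and on chromosome 4 from 152025435 to 152025682, with 4308 reads, an expectation of 254 and a fold enrichment of 6.14. The peak on chromosome 14 held more reads than that of HNRNPA0. A fall of fold enrichment by 6.89%, 9.99%, 1.57% and 2.31%, in the same order, would have taken them to the limit, less than for any of the 5 genes. Other such peaks lay farther from it. Outside the windows, METTL3-sh held 21 peaks with at least 2000 reads that NC-sh lacked. Fold enrichment was below 8 in 12 of these and reached 10.7. That highest peak needed a fall of 44.0%, more than RPS19, CCDC85B or VGF. In NC-sh, 5 of 6 were below 8, and the highest was 8.04.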
